A study of Mus musculus with 6 samples.

Results

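Transcription factors that set myeloid identity or take part in macrophage polarization were read here as a group of 8 genes chosen by name: Cebpa, Cebpb, Cebpd, Maf, Klf4, Gata2, Myc and Nfil3. They are 8 of the 27361 gene names on the array, and all 8 were among the 19043 genes tested, namely those that 2 or more of the 6 arrays read well above background. The C/EBP proteins are basic leucine zipper factors: C/EBPα drives commitment to the granulocyte and macrophage lineages, while C/EBPβ and C/EBPδ take part in inflammatory gene expression in mature macrophages. MAF, KLF4 and MYC have each been linked to alternative activation, NFIL3 is a basic leucine zipper repressor induced by cytokines, and GATA2 belongs to stem and progenitor cells and mast cells. In macrophages they act beside the lineage factor PU.1.

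The cells were bone marrow-derived macrophages of C57BL/6 mice, cultured over 7 days with 10% L929 supernatant, which supplies the macrophage growth factor M-CSF. WT cells were FoxO1 Fl/Fl and carried no Cre. KO cells were LysMcre FoxO1 Fl/Fl, in which the Cre recombinase is expressed from the lysozyme M gene of myeloid cells, so that loss of Foxo1 and presence of Cre cannot be told apart. Over the last 24 hours the M0 state had no stimulus, the M1 state had LPS at 100 ng/ml and IFN-γ at 20 ng/ml, and the M2 state had IL-4 and IL-13 at 10 ng/ml each. Each of the 6 combinations had 1 Agilent array, and nothing in the labels says that the RNA came from separate animals, so p-values measure only the spread between these arrays, which may be technical. Levels are log2 signals relative to the 75th percentile of the array, so that a level of 0 is the signal of that percentile, and a difference of 1 is 2-fold. Array number limits the precision of every value, and no level of a gene is set against that of another gene.

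The 8 macrophage markers checked, Csf1r, Emr1 and Lyz2 among them, were well above background on all 6 arrays. Foxo1 read 1.50, 0.96 and 1.50 in WT M0, M1 and M2 and -1.42, -1.81 and -1.16 in KO, a mean difference of -2.78 ± 0.13 (SE) that is lower in 3 of 3 states (limma adjusted p = 0.304). The position of its probes relative to the deleted part is not given in the sources used. The WT M0 array carried liver transcripts: 10 liver genes summed to 32.4 times the percentile there, to 1.37 on KO M1 and to between 0.146 and 0.267 on the other 4 arrays. Neutrophil and granulocyte genes (10 of 12 measured) summed to 82.1, 3.93 and 26.5 times the percentile in WT M0, M1 and M2, and to 14.9, 4.42 and 6.60 in KO. The WT M0 and WT M1 arrays shared slide 1, and the other 4 arrays shared slide 2.

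Upstream sequences are given for 4 of the genes whose level moved with the stimulus, to show the kind of start site that carries these readings. The windows are the 250 bases before the transcription start on assembly GRCm38.p6, taken from RefSeq and written 5′ to 3′ on the strand of the gene. Capitals mark matches to any of 11 motifs searched on both strands. The Cebpa window is chr7:35119043-35119292 on the plus strand, the Cebpb window chr2:167688665-167688914 on the plus strand, the Klf4 window chr4:55532476-55532725 on the minus strand, and the Nfil3 window chr13:52981040-52981289 on the minus strand.
Cebpa: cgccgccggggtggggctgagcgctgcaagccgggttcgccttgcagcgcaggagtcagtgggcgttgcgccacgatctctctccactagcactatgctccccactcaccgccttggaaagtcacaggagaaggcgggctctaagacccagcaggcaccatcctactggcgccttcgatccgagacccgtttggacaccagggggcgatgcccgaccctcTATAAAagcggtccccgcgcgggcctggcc
Cebpb: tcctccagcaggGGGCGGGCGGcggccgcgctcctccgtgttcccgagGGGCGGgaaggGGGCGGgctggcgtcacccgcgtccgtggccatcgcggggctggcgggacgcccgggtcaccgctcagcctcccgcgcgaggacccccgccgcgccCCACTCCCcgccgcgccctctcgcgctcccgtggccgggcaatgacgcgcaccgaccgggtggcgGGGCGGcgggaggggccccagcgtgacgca
Klf4: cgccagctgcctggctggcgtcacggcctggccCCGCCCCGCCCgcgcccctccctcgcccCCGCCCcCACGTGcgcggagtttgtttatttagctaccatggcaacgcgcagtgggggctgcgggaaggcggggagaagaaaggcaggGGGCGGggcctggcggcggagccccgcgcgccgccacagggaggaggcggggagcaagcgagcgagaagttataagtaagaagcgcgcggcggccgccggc
Nfil3: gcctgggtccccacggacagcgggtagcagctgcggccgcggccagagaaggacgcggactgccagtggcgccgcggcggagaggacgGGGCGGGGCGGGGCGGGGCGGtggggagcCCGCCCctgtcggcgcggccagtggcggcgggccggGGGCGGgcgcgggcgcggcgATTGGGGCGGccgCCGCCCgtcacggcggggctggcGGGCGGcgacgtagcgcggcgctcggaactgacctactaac

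The Cebpa window held a TATA box (TATAAA) from -30 to -25, a motif found in 12.4% of 32851 such windows of 27025 genes. The Cebpb window held 5 GC boxes (GGGCGG, in 32.7% of windows) and a KLF-type match (GGGNGTGG, in 15.9%) at -95. Overlapping matches were counted separately. The Klf4 window held 4 GC boxes and an E-box (CACGTG, in 6.02%), the core sequence bound by MYC and MAX, at -182. The Nfil3 window held 9 GC boxes, 4 of them in an overlapping run, and a CCAAT box (CCAAT, in 33.8%) at -77. Of the 8 genes, 5 had a window, and Gata2 had 2 starts with 1 and 4 matches. The GC content of these 6 windows was between 66.4% and 81.6%, against an upper quartile of 61.2% over all windows. Their CpG counts were between 22 and 43, against an upper quartile of 16. No window of the 5 genes held GTAAACA, a form of the forkhead core (in 3.17% of windows). Other forms of that core were not searched. The Klf4 window printed above does hold tgtttat, which on the other strand is ATAAACA, differing from GTAAACA in the first base. The share of windows with ATAAACA was not counted. The windows also held no STAT6-type motif of TTC and GAA with 4 bases between (5.85%) and no NF-kB-type motif (4.11%). None held the CREB-type TGACGTCA (1.55%), the C/EBP-type TTGCGCAA (0.164%) or the NFIL3-type TTACGTAA (0.113%). A match is a description of these letters and not a shown binding site, and no match says only that these letters are not in this window.

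The M1 stimulus was set against M0 first, to see which of the 8 factors respond to LPS with IFN-γ. Klf4, Nfil3 and Cebpb rose, by 13-fold, 3.01-fold and 2.49-fold, and Myc and Cebpa fell, by 16.2-fold and 3.97-fold. Cebpd, Maf and Gata2 did not pass the test. This makes 5 of 8 genes past a limma adjusted p of 0.05, where 25.6% of all 19043 genes passed (11.6% higher and 14% lower). The M0 and M1 arrays did not overlap for 6 of the 8, Cebpd being the sixth, and for 63.1% of all genes. The test came from an additive model of state and genotype over the 6 arrays, in which the agreement of WT and KO stands in for replicates.

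Myc, the growth-promoting partner of MAX, had the largest range of the 8 genes. Its log2 level was 0.30 in WT M0, -4.05 in WT M1 and 2.17 in WT M2, and 0.07, -3.61 and 1.06 in KO M0, M1 and M2. In processed signal units this is 653 and 628 units on the M0 arrays against 35.3 and 47.6 on the M1 arrays and 2480 and 1308 on the M2 arrays. In both genotypes the order was M2 over M0 over M1, and the arrays of no state overlapped those of another. The M1 minus M0 difference was -4.35 in WT and -3.68 in KO, a mean of -4.01 ± 0.42 (limma adjusted p = 0.0123).

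The probe behind these Myc values was printed on 10 spots of each array, so that its reading error can be seen directly. The standard deviation between those spots was between 0.04 and 0.119 on the log2 scale, with the highest on the WT M1 array where the signal was lowest. This spread covers the array and not the cells. Another Myc probe gave an M1 minus M0 difference of -3.74 ± 0.27 (limma adjusted p = 0.00651). A dimmer probe was not well above background in WT M1, so that its fitted difference has no exact size. In KO, where it was well above background on both arrays, its M1 minus M0 difference was -1.80. All 3 lie within chr15:61820925-61821576 (mm9), on the plus strand, and read the Myc transcript.

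Cebpa, the lineage factor of the family, was at 3.24 in WT M0, 1.36 in WT M1 and 3.85 in WT M2, and at 3.33, 1.24 and 3.79 in KO. Both M1 arrays were far below the other 4, and WT and KO lay within 0.12 of each other in every state. The M1 minus M0 difference was -1.88 in WT and -2.09 in KO, with a mean of -1.99 ± 0.16 (limma adjusted p = 0.00882). The other Cebpa probe gave -1.81 ± 0.20 (limma adjusted p = 0.0111). C/EBPα is also abundant in hepatocytes. Without the WT M0 array that carried liver transcripts the difference was -2.08, and without the KO M0 array it was -1.90. The part of liver transcripts in the Cebpa values was not tested. The summed neutrophil genes were lowest on the M1 arrays too, and their part in the Cebpa values was not tested. In bulk RNA, fewer cells of a type and less RNA per cell cannot be told apart.

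Cebpb, the family member tied to acute-phase and cytokine genes, moved the other way. It read 3.82, 5.09 and 3.95 in WT M0, M1 and M2, and 4.03, 5.39 and 4.18 in KO. The M1 arrays were the highest in both genotypes, and the M0 and M2 arrays overlapped. The rise in M1 was 1.28 in WT and 1.36 in KO, with a mean of 1.32 ± 0.15 (limma adjusted p = 0.0137). The other Cebpb probe rose by 1.94 ± 0.28 (limma adjusted p = 0.0174).

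Cebpd, which is induced early in inflammatory responses, read 3.86, 2.55 and 3.69 in WT M0, M1 and M2, and 3.60, 3.12 and 3.49 in KO. Both M1 arrays lay below the 4 others. The difference was -1.31 in WT but -0.49 in KO, so that its mean of -0.90 ± 0.28 did not pass (limma adjusted p = 0.0915). Under quantile normalization and in the authors' deposited table it did, at -1.21 and -1.23 (limma adjusted p = 0.0439 in both), and likewise with an intensity trend in the variance, at -0.90 (limma adjusted p = 0.0250).

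Klf4, a zinc finger factor of monocyte differentiation and alternative activation, was at 1.03 in WT M0, 4.34 in WT M1 and 4.93 in WT M2, and at 1.63, 5.73 and 4.38 in KO. In processed units the WT arrays gave 1084, 11860 and 16800, and the KO arrays 1859, 30770 and 13070. Both stimulated states were far above M0 in both genotypes, and the order of M1 and M2 was opposite in WT and KO. The rise in M1 was 3.31 in WT and 4.09 in KO, with a mean of 3.70 ± 0.52 (limma adjusted p = 0.0195).

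Nfil3 rose in steps from M0 to M1 to M2 in both genotypes. It read 1.63, 3.21 and 4.72 in WT, and 1.09, 2.69 and 4.14 in KO, so that no state overlapped another. The M1 minus M0 difference was 1.58 in WT and 1.60 in KO, with a mean of 1.59 ± 0.15 (limma adjusted p = 0.0106). The other Nfil3 probe gave 1.85 ± 0.15 (limma adjusted p = 0.00728). WT M1 and M0 shared a slide, as did KO M1 and M0, so the M1 differences of all 8 genes were within a slide.

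**Figure D1:**
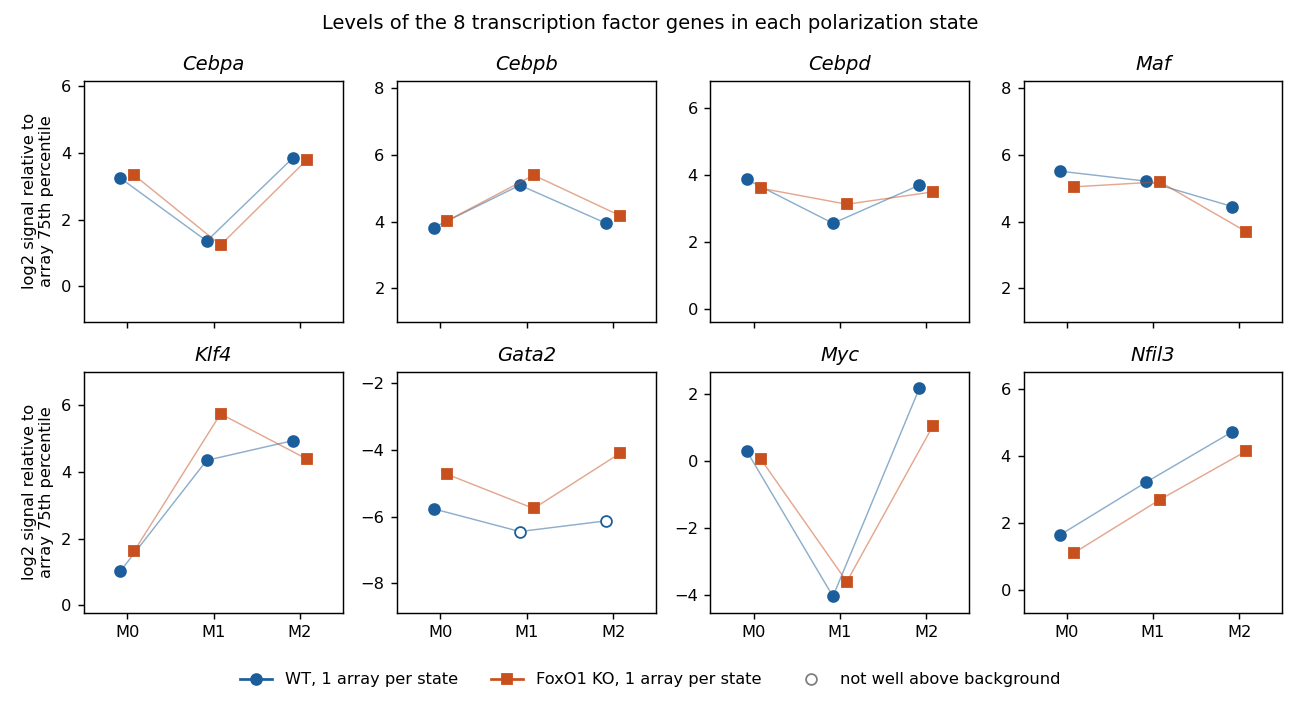
Log2 signal relative to the array's 75th percentile (y axis, the same span in each panel) in M0, M1 and M2 (x axis) for the 8 genes. Circles are WT and squares KO, 1 array each, thin lines join arrays of a genotype, and open symbols were not well above background. Myc falls to -4.05 and -3.61 in M1, while Klf4 is above 4 in M1 and M2 of both genotypes.

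These calls rest on both arrays of each state. When any of the 4 M0 and M1 arrays was left out, 0 of the 8 genes passed in M1 versus M0, with Myc between -4.57 and -3.46 and Cebpa between -2.08 and -1.90. Of all 19043 genes, 0 passed in those 4 fits.

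Maf, the large Maf factor of resident and IL-10-producing macrophages, did not pass in M1 versus M0. It read 5.51, 5.21 and 4.45 in WT M0, M1 and M2, and 5.04, 5.19 and 3.70 in KO. Its M0 and M1 arrays overlapped and both M2 arrays were the lowest. The M1 minus M0 difference was -0.30 in WT and 0.15 in KO (mean -0.07 ± 0.24, limma adjusted p = 0.846), and its sign turned under median centring, to 0.15.

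The 4 Maf probes did not read alike in M1. They lie on the minus strand of chr8 (mm9), and the brightest, at 118231607 to 118231666, is the one given above. The probe at 118229204 gave 0.11 ± 0.16 and that at 118227736 gave -0.26 ± 0.17, and neither passed. The probe at 118207168, assigned in the files to another transcript of Maf and lying farthest downstream, gave -0.83 ± 0.20 (limma adjusted p = 0.0475 in a fit over 28778 probes). That probe read 0.98 in WT M0 and -0.09 in WT M1, and 0.57 and -0.02 in KO. In this fit 28.9% of all probes passed in M1 versus M0.

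Gata2, the progenitor and mast cell factor, was near the lower limit of the arrays. It read -5.77, -6.45 and -6.13 in WT M0, M1 and M2, and -4.74, -5.76 and -4.11 in KO. In processed units that is 9.76, 6.72 and 7.87 in WT, and 22.4, 10.7 and 36.3 in KO. The WT M1 and WT M2 arrays were not well above background. The M1 minus M0 difference of -0.85 ± 0.38 did not pass (limma adjusted p = 0.185). With the mean of the Gata2 probes, dim readings included, it passed at -0.90 ± 0.16 (limma adjusted p = 0.0310). Of the 10 mast cell and basophil markers, between 5 and 7 were well above background on each array. Fcer1a, Tpsb2, Cma1 and Prss34 were so on all 6 arrays and Kit and Hdc on 4, while Cpa3 and Ms4a2 were so on 0.

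M2 was set against M0 to see which factors respond to IL-4 with IL-13. Nfil3 rose by 8.41-fold and was the 1 of 8 genes past the threshold, where 0.0998% of all genes (19) passed (0.0788% higher and 0.021% lower). Klf4 was 10.0-fold and Myc 2.70-fold higher by mean, and Maf 2.30-fold lower, but these did not pass. By arrays, 5 of the 8 genes (these 4 and Cebpa) did not overlap between M2 and M0, against 53.3% of all genes. WT M2 and WT M0 were on different slides, and KO M2 and KO M0 on the same. A slide term gave the same state differences as leaving out the WT M2 array, so for these the fits are not separate checks.

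Nfil3 was higher by 3.09 in WT and by 3.05 in KO, with a mean of 3.07 ± 0.15 (limma adjusted p = 0.0488). The other Nfil3 probe rose by 3.18 ± 0.15 (limma adjusted p = 0.0360 in the probe fit, in which 0.188% of probes passed). The call lies at the edge of the threshold: with slide as a term the difference was 3.05 (limma adjusted p = 0.200), with normexp background correction 3.16 (limma adjusted p = 0.110), and without the low-signal filter 3.07 (limma adjusted p = 0.0918). Leaving out any 1 of the 6 arrays also ended it, with values between 3.05 and 3.10.

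Klf4 was higher in M2 by 3.90 in WT and 2.74 in KO (mean 3.32 ± 0.52, limma adjusted p = 0.106). It passed under median centring at 3.23 (limma adjusted p = 0.0231) and with the intensity trend at 3.32 (limma adjusted p = 0.0131). Myc was higher by 1.87 in WT and 0.99 in KO (mean 1.43 ± 0.42, limma adjusted p = 0.216), and its other probes gave 1.48 and 1.44.

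The M2 minus M0 difference of Maf was -1.06 in WT and -1.34 in KO, and its mean of -1.20 ± 0.24 did not pass (limma adjusted p = 0.138), although with the intensity trend it did (limma adjusted p = 0.0249). Its other 3 probes gave larger differences, of -1.96 ± 0.16, -1.96 ± 0.17 and -1.87 ± 0.20, with limma adjusted p-values of 0.0561, 0.0571 and 0.0660. The probe at 118227736, for example, read 4.84 in WT M0 and 3.02 in WT M2, and 4.62 and 2.53 in KO. The brightest probe thus gave the smallest M2 difference of the 4.

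The C/EBP genes differed little between M2 and M0. Cebpa was higher by 0.61 and 0.45 (mean 0.53 ± 0.16, limma adjusted p = 0.218), Cebpb by 0.14 and 0.15 (mean 0.14 ± 0.15, limma adjusted p = 0.601). Cebpd differed by -0.16 and -0.11 (mean -0.14 ± 0.28, limma adjusted p = 0.786). Gata2 differed by -0.36 in WT, where the M2 array was not well above background, and by 0.63 in KO (mean 0.13 ± 0.38, limma adjusted p = 0.854).

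**Figure D2:**
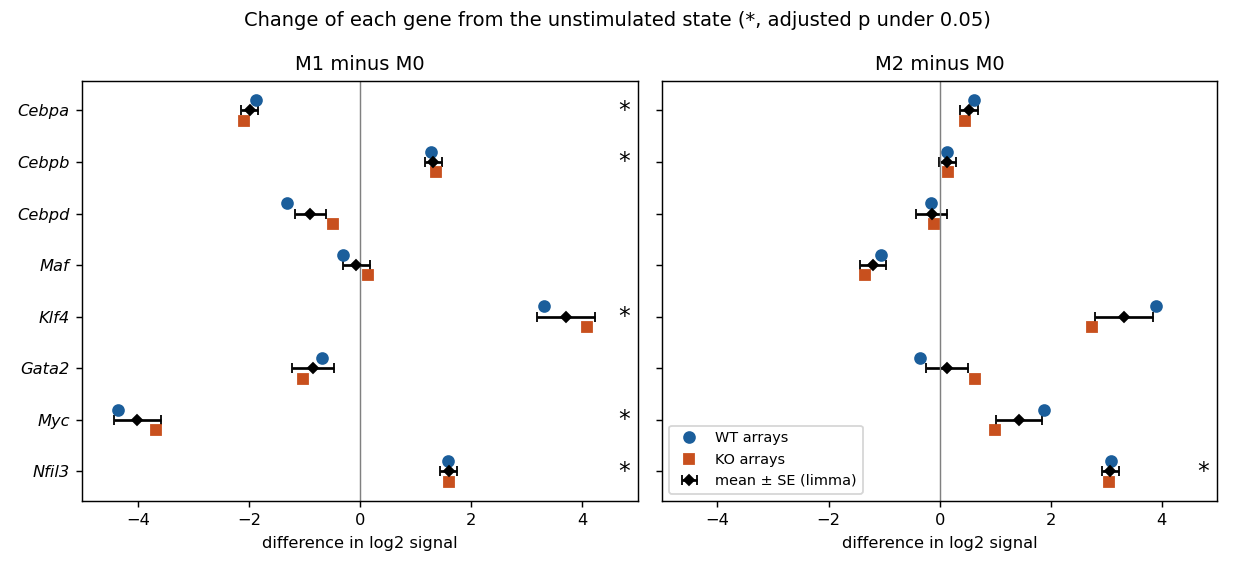
Difference in log2 signal (x axis) from M0 for each gene (y axis), M1 minus M0 on the left and M2 minus M0 on the right. Circles are WT, squares KO, diamonds the mean with its SE from limma, and asterisks mark adjusted p under 0.05. In M1 5 genes carry an asterisk, and in M2 only Nfil3 does.

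The direct comparison of M1 with M2 uses the same arrays, so its values follow from those above. It passed for 5 of 8 genes: Cebpb and Maf were higher in M1, and Myc, Cebpa and Nfil3 higher in M2. Of all genes 25.3% passed (11.7% higher and 13.6% lower). The arrays did not overlap for these 5 and Cebpd (6 of 8), and for 64.2% of all genes. Myc had the widest gap, 43.6-fold, at -6.22 in WT and -4.67 in KO (mean -5.45 ± 0.42, limma adjusted p = 0.00735). Cebpa was 5.73-fold lower in M1 (-2.52 ± 0.16, limma adjusted p = 0.00604) and Nfil3 2.79-fold lower (-1.48 ± 0.15, limma adjusted p = 0.0106). Without the WT M1 or the KO M1 array, 0 of the 8 genes and 0 of all genes passed.

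Cebpb was 2.26-fold higher in M1 than in M2 (1.18 ± 0.15, limma adjusted p = 0.0157), a call lost under normexp at 1.13 (limma adjusted p = 0.0615) and with the slide term at 1.19 (limma adjusted p = 0.0565). Maf was 2.18-fold higher (0.76 in WT, 1.49 in KO, mean 1.12 ± 0.24, limma adjusted p = 0.0427), and all 4 of its probes passed in the probe fit, with means between 1.04 and 2.07, where 28.5% of probes passed. For the brightest probe the call was lost under quantile normalization at 0.79 (limma adjusted p = 0.0676), in the authors' deposited table at 0.78, with normexp at 1.11, without the filter at 1.12, with the slide term at 1.37, and when any 1 array was left out. Klf4 differed by -0.59 in WT and 1.35 in KO (mean 0.38 ± 0.52, limma adjusted p = 0.623). Gata2 was not measured on every array: its brightest probe was not well above background in WT M1 and WT M2, and its fitted difference of -0.98 ± 0.38 did not pass (limma adjusted p = 0.144). The other probe passed in the probe fit, at -1.56 ± 0.28 (limma adjusted p = 0.0261). It was well above background on 1 of the 2 M1 arrays, so that this difference has no exact size. With the mean of the Gata2 probes the difference passed too, at -1.27 ± 0.16 (limma adjusted p = 0.0159).

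**Figure D3:**
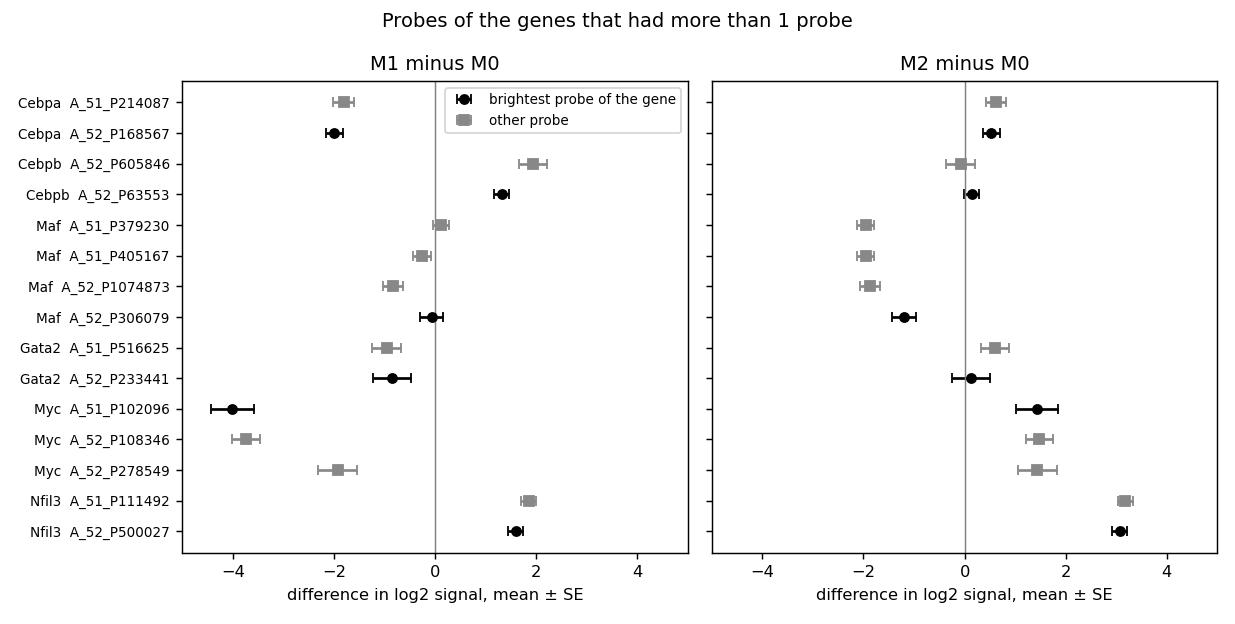
Differences in log2 signal with SE (x axis) for every probe of the 6 genes that had more than 1 probe (y axis), M1 minus M0 on the left and M2 minus M0 on the right. Black circles are the brightest probe of a gene and grey squares the others. The 4 Maf probes spread from -0.83 to 0.11 in M1, and in M2 the brightest lies at -1.20 and the others between -1.96 and -1.87.

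Loss of Foxo1 was examined next, as the factor the series is about. None of the 8 genes passed for KO against WT over the 3 states, and 0% of all 19043 genes did (limma). At an unadjusted p under 0.05 there were 2 of the 8, Gata2 and Nfil3, and 2159 of all genes. Cebpb and Gata2 were higher in KO in all 3 states (2 of 8, where 22.1% of all genes were), and Maf and Nfil3 lower in all 3 (2 of 8, where 15.1% were). The other 4 genes had mixed signs. Summed markers of some other cells were also lower in KO. The 8 stromal genes summed to 14.2, 6.87 and 7.52 times the percentile in WT M0, M1 and M2. In KO they summed to 5.03, 4.51 and 3.58. The neutrophil sums given above were lower in KO in M0 and M2, and the 5 monocyte genes summed to 12.9, 8.68 and 335 in WT, and to 2.24, 4.97 and 283 in KO. The 5 B cell genes gave 1.66, 0.228 and 0.899 in WT and 0.501, 0.206 and 0.402 in KO. Other sums were higher in KO in M0 and M1. The 6 T and NK cell genes gave 0.229, 0.388 and 0.485 in WT and 0.412, 1.02 and 0.417 in KO. The 5 dendritic cell genes gave 0.231, 0.648 and 0.628, and 0.343, 1.13 and 0.448. The 6 erythroid and megakaryocyte genes gave 175, 66.7 and 119, and 183, 111 and 127. The part of any of these cells in the genotype differences was not tested.

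Nfil3 had nearly the same difference in each state: KO minus WT was -0.54 (M0), -0.52 (M1) and -0.57 (M2). Its mean was -0.54 ± 0.12 (limma adjusted p = 0.374), and the other probe gave -0.57 ± 0.12. The M2 arrays compared here shared a slide, while the M0 and M1 arrays did not.

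Gata2 was higher in KO in every state, with differences of 1.03 (M0), 0.69 (M1) and 2.02 (M2). Their mean was 1.24 ± 0.31 (limma adjusted p = 0.381). Because the WT M1 array was not well above background, the M1 difference is at least 1.40-fold. Such a bound compares the bright array with the dim array's own reading or its lowest signal counted as well above background, whichever is higher. The WT M2 array was not well above background either, and there its own reading was the higher. The M2 value of 4.05-fold is thus the difference of the readings, without an exact size, and not a lower limit. The other Gata2 probe was not well above background in WT M0 and WT M1. It gave at least 2.76-fold in M0 and at least 1.63-fold in M1, and a difference of 1.30 in M2, where both arrays were well above background.

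The mast cell and basophil markers did not all move the same way between the genotypes in M0 and M2. Their summed level was 0.230 times the percentile in WT M0 and 0.248 in KO M0. It was 1.16 and 1.87 in M1, and 0.265 and 0.239 in M2. The M1 sums were mostly Hdc, at 610 units in WT and 955 in KO. The next brightest marker in M1 was Prss34 at 26.3 units in WT and Fcer1a at 35.6 in KO. Hdc rose in M1 by 4.97 ± 0.56, and the part of cell number in the higher M1 sums was not tested. The next values are for markers well above background on both arrays compared. In M0, KO minus WT was 1.16 for the tryptase gene Tpsb2 and 0.81 for the chymase gene Cma1. It was 0.49 for Prss34, 0.17 for Kit and 0.14 for Fcer1a, but -1.39 for Hdc. In M1 each was higher in KO: Tpsb2 by 1.16, Fcer1a by 1.11, Cma1 by 1.08, Hdc by 0.66 and Prss34 by 0.37. In M2, Tpsb2 gave -0.41, Kit -0.35, Fcer1a -0.31 and Prss34 -0.26, while Cma1 gave 0.21 and Mcpt4 0.30. The part of these cells in the Gata2 values was not tested. In M0 Gata2 was the 1 of 8 genes at least 2-fold apart between KO and WT, where 9.37% of all genes well above background on both arrays were.

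Within M1, Klf4 was the 1 of 7 measurable genes that was 2-fold apart, at 1.39 higher in KO, where 10.3% of all genes were. Its difference was 0.61 in the M0 state and -0.55 in the M2 state, and its mean over states was 0.48 ± 0.42 (limma adjusted p = 0.632). The KO M1 array carried some liver transcripts, and their part in the Klf4 value was not tested. Within M2, Myc was the 1 of 7, at -1.11, where 6.22% of all genes were. Its other probes gave -0.86 and -0.58 in M2, and of these the brighter gave -0.13 in M0 and -0.03 in M1. The dimmer gave 0.51 in M0 and at least 1.53-fold higher in KO in M1, where WT was not well above background. By its brightest probe Myc differed by -0.23 (M0) and 0.44 (M1), and the mean was -0.30 ± 0.35 (limma adjusted p = 0.706). These values within a state compare 1 array with 1 array and have no test.

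The remaining genes differed less. Maf gave -0.47, -0.02 and -0.75 for M0, M1 and M2 (mean -0.41 ± 0.19, limma adjusted p = 0.489). Cebpb was higher by 0.22, 0.30 and 0.23 (mean 0.25 ± 0.12, limma adjusted p = 0.496), although its other probe read -0.11, -0.41 and 0.52. Cebpd differed by -0.25, 0.57 and -0.20 and Cebpa by 0.09, -0.12 and -0.06, with means of 0.04 ± 0.23 and -0.03 ± 0.13.

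**Figure D4:**
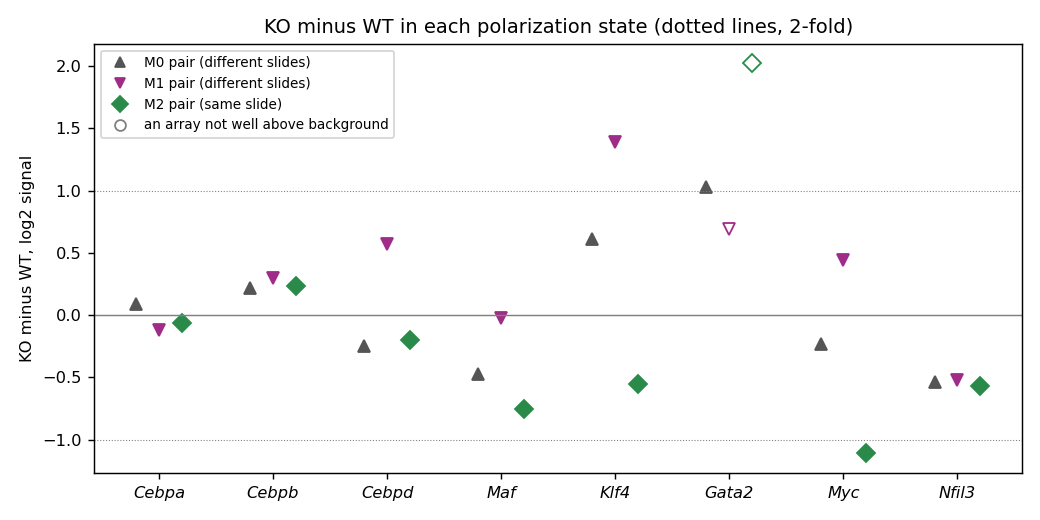
KO minus WT in log2 signal (y axis) for each gene (x axis) in M0, M1 and M2, 1 array against 1 array. Open symbols mark pairs with an array not well above background, and dotted lines mark 2-fold. Nfil3 lies between -0.57 and -0.52 in the 3 states, and Klf4 between -0.55 and 1.39.

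Relatives, partners and linked genes of the 8 factors were read in 12 lists of 149 genes. They describe the setting, and no list was tested as a set. In M1 versus M0 the median difference over all tested genes was 0.03, and each list is described by its counts and its median. Over all genes 11.6% rose and 14% fell in M1, and the counts of several lists are near these shares. In M2 versus M0 the threshold was passed by 1 gene of the 12 lists, where 0.0998% of all genes passed, and for KO against WT by 0 (limma).

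Among the other C/EBP genes, 1 of 3 tested passed in M1 (median 0.26): Ddit3, which encodes the stress factor CHOP, rose by 1.90 ± 0.15. Of 13 C/EBP-linked genes of inflammation and alternative activation 10 rose and 0 fell, with a median of 4.81. Ptgs2, the inducible cyclooxygenase, rose by 8.59 ± 0.52, the acute-phase gene Saa3 by 6.12 ± 0.40, and the IL-1 receptor antagonist gene Il1rn by 5.38 ± 0.23.

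Of 6 other MAF and BACH genes 3 rose and 2 fell in M1 (median 0.35). Bach2, whose product is a repressor that pairs with small Maf proteins, fell by 3.31 ± 0.19. The small Maf genes Maff and Mafk rose by 2.11 ± 0.28 and 1.42 ± 0.16. Of 11 MAF-linked genes 2 rose and 5 fell (median -0.24), among them the mannose receptor gene Mrc1 at -5.49 ± 0.33, Gas6 at -3.65 ± 0.40 and Il10, which rose by 2.54 ± 0.30.

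Of 14 other KLF genes 2 rose and 3 fell in M1 (median -0.04). Klf8 rose by 2.13 ± 0.27, and Klf11 and Klf7 fell by 1.59 ± 0.35 and 1.57 ± 0.24. Of 12 KLF4- and STAT6-linked genes of alternative activation 4 rose and 4 fell (median -0.54): Socs1, a cytokine signal inhibitor, rose by 6.31 ± 0.44, and Mrc1 and Clec10a, both lectin receptor genes, fell by 5.49 ± 0.33 and 5.02 ± 0.49. In M2 versus M0 this list had a median of 6.34 against 0.08 over all genes. Of the 12 genes, 1 passed: Pdcd1lg2, the gene of the PD-1 ligand PD-L2, rose by 7.01 ± 0.21 (limma adjusted p = 0.0450). In M1 versus M2 11 of the 12 were lower in M1 and 0 higher, against 13.6% and 11.7% of all genes.

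Of 11 MYC and MAX network genes 4 rose and 2 fell in M1 (median -0.20). Mxd4 fell by 3.49 ± 0.19, and Mxd1, whose product competes with MYC for MAX, rose by 3.03 ± 0.22. Mycl1 rose by 1.42 ± 0.18. Of 20 MYC-linked genes of growth 2 rose and 4 fell (median -0.21). The cyclin gene Ccnd2 rose by 3.79 ± 0.26, and Cad and Gart, of pyrimidine and purine synthesis, fell by 1.50 ± 0.29 and 1.13 ± 0.23. In M2 versus M0, 0 of these 31 passed, against 0.0998% of all genes.

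Of 13 NFIL3 partners, the PAR leucine zipper and clock genes, 0 rose and 4 fell in M1 (median -0.38). Dbp, whose product binds the same sites as NFIL3, fell by 2.79 ± 0.17, Per3 by 1.71 ± 0.31 and Tef by 1.00 ± 0.16. Dbp read 4.87, 1.94 and 3.49 in WT M0, M1 and M2, and 4.33, 1.69 and 2.94 in KO. Its highest levels were in M0, where Nfil3 was lowest, while the lowest Dbp levels were in M1 and the highest Nfil3 levels in M2.

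Of 6 other GATA genes and cofactors 0 passed in M1 (median 0.23). Of 10 GATA2-linked progenitor and mast cell genes 1 rose and 1 fell (median -0.15): Hdc, the histidine decarboxylase gene, rose by 4.97 ± 0.56, and the progenitor marker Cd34 fell by 1.94 ± 0.21. Of 22 other myeloid identity and polarization factors 7 rose and 6 fell (median 0.07). The immediate early factor Egr2 fell by 4.76 ± 0.59 and the nuclear receptor gene Pparg by 2.91 ± 0.18, and Batf rose by 3.21 ± 0.21.

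**Figure D5:**
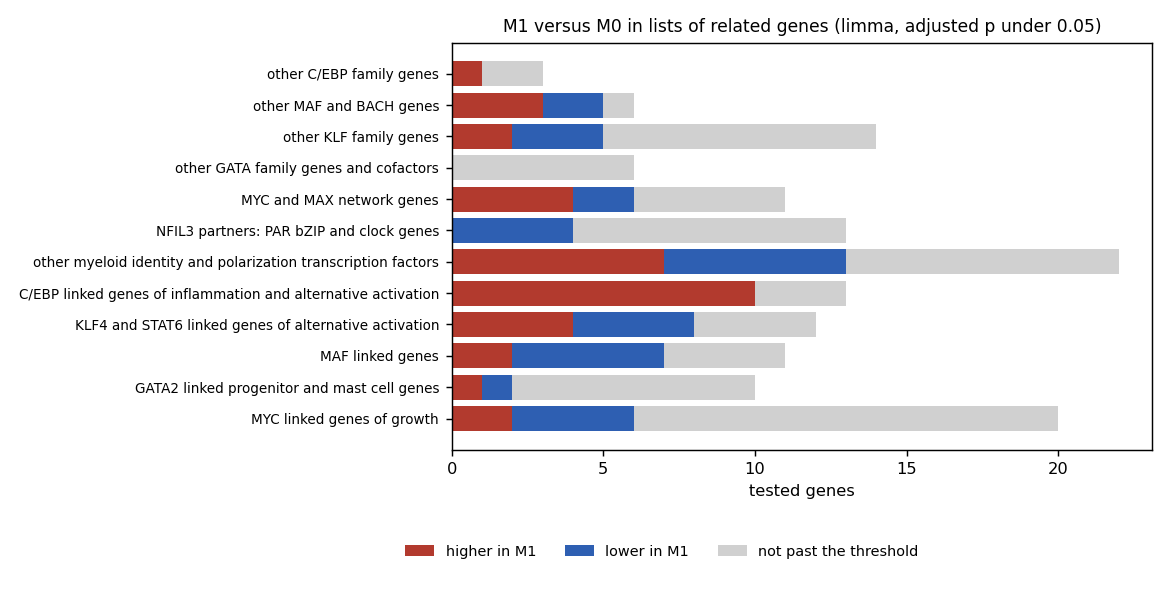
Number of tested genes (x axis) in each of 12 lists of relatives, partners and linked genes (y axis) that were higher in M1, lower in M1 or not past a limma adjusted p of 0.05 against M0. The C/EBP-linked list has 10 higher and 0 lower of 13, and the list of NFIL3 partners 0 higher and 4 lower of 13.

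For each factor the 2 genes of most similar profile were found by the root mean square difference of profiles over the 6 arrays, each centred on its own mean, among 12381 genes that every array read well above background, leaving out the 8 factors and names that are clone, predicted-gene or accession names. Cebpb lay closest to any gene, at 0.04 from the proteasome subunit gene Psmd11 and 0.07 from Diablo, over a range of its own of 1.58. Cebpd lay 0.07 from Ercc6l and 0.11 from Caprin2, and Cebpa 0.09 from Fam132a and 0.10 from Pole2. Maf lay 0.13 from Fgd3 and 0.15 from Sash1, and Gata2 0.16 from Raet1e and 0.21 from Bbc3. Nfil3 lay 0.25 from Ppargc1b and 0.29 from Chchd10, and Myc 0.32 from Arhgap6 and 0.35 from Rhoj. Klf4 had the least similar neighbours, F10 at 0.49 and Aldh1b1 at 0.62. These distances were not divided by the range of a gene over the arrays, which was 4.70 for Klf4 and 6.22 for Myc. The part of the range in them was not tested.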

How the data were processed

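The authors deposited 1-colour Agilent scanner files, whose spot intensity (processed signal, background-subtracted) was made, per the file headers, with Agilent Feature Extraction 10.7.3.1. A log2 table of these arrays, deposited by the authors with its normalization unstated in the sources used, served as an alternative. Between 79 and 164 of 43379 spots per array were left out for outlier flags, spots of a probe were averaged, and the log2 processed signal was set relative to the array's 75th percentile, which lay between 531.6 and 628.2 units. Of all spots, 63.1% to 67.9% were well above background, and 0 were saturated. A gene was read by its brightest probe. Probe coordinates are those of the files (mm9).

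With limma 3.58.1 in R 4.3.3, state and genotype were fitted additively to all 6 arrays (2 residual df, prior df 1.88), with eBayes and Benjamini-Hochberg adjustment over 19043 genes. Genotype effects that depend on the state are part of the residual. The procedure was tested on simulated data. Alternatives were scaling, background correction, source table, probe choice, filter, intensity trend, slide and leaving out each array; the test of each probe was added after seeing the data. The 8 genes and the lists were chosen with earlier results of these data known. In each list, up to 3 genes past the threshold are named by size of the difference in M1 or M2 versus M0, among those well above background on the 4 arrays compared.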

Additional observations from a re-analysis of the deposited data

Results flagged for a closer look

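The values here set 2 differences of opposite sign side by side. Each rests on 1 array per group, and none of these differences was tested.

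Klf4 was lower in M1 than in M2 in WT (-0.59) and higher in KO (1.35), a difference of -1.94 between genotypes. KO minus WT for Klf4 was above 0 in M0 and M1 and below 0 in M2, so that M0 and M2 differed by 1.16 and M1 and M2 by 1.94. By its brightest probe Myc was higher in KO in M1 and lower in M0 and M2: M0 and M1 differed by -0.67, and M1 and M2 by 1.56. Another Myc probe gave KO minus WT values of -0.13, -0.03 and -0.86 in M0, M1 and M2, and so did not turn. The dim Myc probe was higher in KO in M0 (0.51) and in M1, where WT was not well above background, and lower in M2 (-0.58). Cebpd was likewise higher in KO in M1 alone, with a difference of -0.82 between M0 and M1 and of 0.77 between M1 and M2. Gata2 had an M2 minus M0 difference of -0.36 in WT and 0.63 in KO, which differ by -0.99, and its WT M2 reading was not well above background.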

How the results depend on the processing

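For M1 versus M0, 5 of the 8 genes passed, and leaving out each array in turn gave 0 to 5; over all genes 4867 passed, with 1568 under normexp and 0 to 5403 when an array was left out. For M2 versus M0, 1 of the 8 passed, with 2 under median centring, 3 with an intensity trend, and 0 under normexp, without the filter, with slide as a term and when any 1 array was left out (0 to 0). Over all genes 19 passed there, against 478 under median centring, 147 under quantile normalization, 153 in the authors' deposited table, 272 with the filter on all 6 arrays, 1074 with an intensity trend, and 0 under normexp, without the filter, with the slide term and when any 1 array was left out (0 to 0). For M1 versus M2, 5 of the 8 passed, with 3 under normexp and 0 to 4 without an array; over all genes 4816 passed, with 1557 under normexp, 2188 with the slide term and 0 to 4746 without an array. For KO versus WT, 0 of the 8 passed in every fit, and 35 of all genes passed with an intensity trend. The lone array of a group in fits without an array is assumed to vary like the others, and with the slide term the genotype value comes from the M2 arrays alone. State differences with the slide term equal those without the WT M2 array.

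Signs that turned all belong to differences that did not pass. Maf in M1 versus M0 was 0.15 under median centring and under normexp, 0.11 by another probe and -0.37 to 0.22 without an array. In M2 versus M0, Cebpd was 0.02 under normexp and -0.36 to 0.08 without an array, Cebpb was -0.08 by its other probe, and Gata2 was -0.05 under quantile normalization, -0.56 under normexp, -0.07 in the authors' deposited table and -0.45 to 0.71 without an array. Klf4 in M1 versus M2 was -0.40 to 1.15 without an array. For KO versus WT, Cebpd was -0.05 under median centring and normexp, -0.00 under quantile normalization, -0.20 with the slide term and -0.23 to 0.18 without an array; Klf4 was -0.55 with the slide term; Myc was 0.23 by the dim probe and -0.67 to 0.11 without an array; Cebpa was -0.09 to 0.02 without an array. The cause of these changes was not tested.

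Scaling moved the split of calls: 45.3% of the genes past the threshold in M1 versus M0 were higher, against 58.8% under median centring, and 46.2% in M1 versus M2 against 64.4%. In M2 versus M0 the share was 78.9%, against 47.5% under median centring and 61.9% under quantile normalization. Median centring moved the median of all genes from 0.03 to 0.26 in M1 versus M0, and normexp moved it to -0.32. The additive model already sets states within a genotype against each other. No paired analysis was possible because the labels give no replicate numbers that would pair arrays beyond this. Signal over background limits Gata2 most, since 2 of its 6 arrays were not well above background.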

Other observations

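Some genes of the lists had large M2 minus M0 differences that did not pass the test (limma), and were picked after their values were seen. The clock repressor gene Bhlhe40 read -0.66 and -0.12 in WT M0 and KO M0 and 2.94 and 3.18 in M2, a mean difference of 3.45 (limma adjusted p = 0.0579). Klf9 read -1.08 and -0.90 in M0 and 2.13 and 1.35 in M2, a mean of 2.73 (limma adjusted p = 0.0798). Egr2 read 3.17 and 3.38 in M0, -2.35 and -0.62 in M1, and 6.62 and 6.14 in M2, so that its order of states was that of Myc.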
